A study of Mus musculus with 12 samples.

Results

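The genes described here are 9 members of the transforming growth factor beta (TGF-beta) system in the mouse cornea: the ligands Tgfb1, Tgfb2 and Tgfb3, the activin A subunit gene Inhba, the latent TGF-beta binding proteins Ltbp1 and Ltbp2, the receptors Tgfbr1 and Tgfbr2, and the intracellular inhibitor Smad7. They were chosen by symbol, as 9 of the 18194 genes that the arrays' platform table names. A probe set, the group of short probes that reads 1 transcript, was used where the table gave it 1 of these symbols and no other. The 9 genes have 21 such probe sets, and the brightest of each gene's, by its mean over all 12 arrays, stood for the gene. All 9 lay above the level required for testing, an intensity of about 9.51, as did 12706 genes in all.

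Whole corneas of C57BL/6J mice were measured on Affymetrix arrays, 1 array to a sample, in 8 groups. Intact corneas came from 4 genotypes with 2 arrays each: mice null for both Dscr1 and Apoe (double KO, Dscr-1-/- with ApoE-/-), Dscr-1-/- mice (Dscr1KO), ApoE-/- mice (ApoeKO) and wild type (WT). Sutured corneas, with 1 array each, came from Dscr1KO and WT mice at day 5 and from Dscr-1 Tg mice, which carry a Dscr1 transgene, and WT mice at day 7. Dscr1 is an older name of Rcan1, which encodes an inhibitor of the phosphatase calcineurin. Apoe encodes apolipoprotein E, a protein of the lipoproteins that carry cholesterol. Corneal sutures are used to provoke inflammation and the ingrowth of vessels. The labels call the intact arrays biological replicates. The sources used here do not give the promoter of the transgene, the ages and sexes of the mice or any pooling of corneas.

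The signal of each probe set is a linear intensity that the authors scaled to a trimmed mean of 100 on every array, and array medians lay between 15.6 and 21.1. Rcan1 read 331.7 to 477.5 in the 4 intact arrays without Dscr1 and 479.1 in the sutured Dscr1KO array, against 579.7 to 668.2 in the 6 arrays of WT corneas and corneas labelled ApoeKO. In the array labelled Dscr-1 Tg it read 548.3, against 579.7 in the WT array of the same day, so this probe set does not show a raised level under the Tg label. A dimmer Rcan1 probe set read 66.7 in that Tg array against 53.4 in WT. It read 10.5 to 20 in the intact arrays without Dscr1 and 13.1 in the sutured Dscr1KO array. WT arrays read 30.4 to 53.4 on it, and the libraries labelled ApoeKO 32.7 and 18.5. The place of the Rcan1 probes relative to the deletion is not given, so the Dscr1 labels cannot be checked by what signal is left. Apoe was at 32.5 and 22.7 in double KO corneas and 7.5 in the library labelled ApoeKO replicate 2, but 849.3 in the library labelled ApoeKO replicate 1, which goes against that label. In the library labelled Dscr1KO replicate 2, whose source label names ApoE-/- while its title and genotype name Dscr1, Apoe read 316.8 against 1272 in Dscr1KO replicate 1. Xist, which is expressed from the inactive X chromosome of females, read 4104 to 5385.2 in double KO replicate 1 and in both libraries labelled Dscr1KO and both labelled ApoeKO, and 19.6 or less in the other 7 arrays. Intact WT and intact single-knockout corneas therefore differ in Xist as well as in genotype. Replicates differed by more than 2-fold at 1147 genes in double KO and 1648 in Dscr1KO, against 381 in ApoeKO and 215 in WT.

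TGF-beta ligands are secreted in a latent form, bound to a propeptide that Ltbp proteins can anchor to the extracellular matrix. Once released, a ligand binds the type II receptor Tgfbr2, which then recruits and phosphorylates the type I receptor Tgfbr1. The receptor complex phosphorylates Smad2 and Smad3, which enter the nucleus with Smad4, and Smad7 is induced by the pathway and blocks the receptor. Activin A, a dimer of Inhba products, uses its own receptors and the same Smads. In the cornea the pathway is known for turning stromal keratocytes into myofibroblasts after injury, a step in scarring and opacity.

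The start regions of 5 genes are shown because these genes differed between genotypes, 4 upward and 1 downward, and because nuclear Smads bind short elements in promoters. RefSeq windows on the GRCm38.p6 build run from 250 bases before a listed start site to 50 after it. They were examined for 7 of the genes, of which 5 have a single window. Tgfb3 had no window, and Smad7 was not examined. Each line reads 5′ to 3′ on the gene's strand, and capitals mark the Smad box CAGAC or its reverse complement GTCTG.
Ltbp2, chr12:84876442-84876741, minus strand: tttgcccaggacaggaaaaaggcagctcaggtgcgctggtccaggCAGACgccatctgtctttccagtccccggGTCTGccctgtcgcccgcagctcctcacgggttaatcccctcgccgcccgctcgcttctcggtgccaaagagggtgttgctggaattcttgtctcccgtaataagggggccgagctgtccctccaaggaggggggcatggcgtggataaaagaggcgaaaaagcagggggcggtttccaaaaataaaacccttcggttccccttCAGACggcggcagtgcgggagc
Tgfb2, chr1:186705940-186706239, minus strand: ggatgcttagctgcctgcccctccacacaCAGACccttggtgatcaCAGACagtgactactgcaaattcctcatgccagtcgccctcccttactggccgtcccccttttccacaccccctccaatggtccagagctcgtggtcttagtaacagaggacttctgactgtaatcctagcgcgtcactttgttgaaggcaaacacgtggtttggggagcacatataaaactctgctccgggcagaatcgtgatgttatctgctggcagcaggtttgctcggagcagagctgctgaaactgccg
Tgfbr2, chr9:116175314-116175613, minus strand: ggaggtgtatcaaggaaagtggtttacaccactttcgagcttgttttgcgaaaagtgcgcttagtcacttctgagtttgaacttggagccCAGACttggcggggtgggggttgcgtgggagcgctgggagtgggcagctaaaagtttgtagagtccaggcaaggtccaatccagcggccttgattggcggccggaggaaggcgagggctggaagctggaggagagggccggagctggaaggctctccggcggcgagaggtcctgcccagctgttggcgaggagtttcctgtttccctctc
Inhba, chr13:16011601-16011900, plus strand: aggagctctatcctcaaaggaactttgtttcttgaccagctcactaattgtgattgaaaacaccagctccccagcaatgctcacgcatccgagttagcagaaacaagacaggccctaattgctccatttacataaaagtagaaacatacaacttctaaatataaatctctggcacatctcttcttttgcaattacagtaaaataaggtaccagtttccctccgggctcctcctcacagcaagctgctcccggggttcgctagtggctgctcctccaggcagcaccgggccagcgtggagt
Tgfbr1, chr4:47352972-47353271, plus strand: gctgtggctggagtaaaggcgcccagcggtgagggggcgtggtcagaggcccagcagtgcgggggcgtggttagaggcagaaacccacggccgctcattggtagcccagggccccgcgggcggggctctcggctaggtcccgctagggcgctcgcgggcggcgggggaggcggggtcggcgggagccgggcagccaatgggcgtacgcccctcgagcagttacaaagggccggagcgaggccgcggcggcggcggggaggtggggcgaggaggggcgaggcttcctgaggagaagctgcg
The Ltbp2 window holds 3 matches, beginning 205 and 176 bases before the start and at base 29 after it. The Tgfb2 window holds 2, at 221 and 204 bases before the start, and the Tgfbr2 window holds 1, at 160 bases before it. The windows of Inhba, a gene that was higher, and of Tgfbr1, the gene that was lower, hold none, so the matches do not divide the genes by direction. A window at a second listed start of Tgfbr1 holds 1, and the windows of Ltbp1, which are not printed, hold 1 and 2. Such a match is common, present in 49.59% of 32851 windows of this length when both strands are searched. The Tgfb2 window also holds the TATA box TATAAA on the printed strand, 31 bases before the start. The Inhba window holds it 91 bases before the start, and a TATA box on either strand occurs in 13.62% of windows. The core GGAAAA that NFAT, the factor controlled by calcineurin, can bind was found on 1 strand or the other in the printed Ltbp2 and Tgfb2 windows, and in 23.36% of all windows. The AP-1 letters TGANTCA, found in 7.81% of all windows, were in none of the windows examined for these 7 genes. These are matches of letters, not measured binding.

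Most of these genes differed between intact corneas without and with Dscr1. Averaged over the Apoe labels, with 4 arrays without Dscr1 against 4 with it, 6 of the 9 genes were higher and 1 was lower. Among all genes tested, 31.7% passed in this comparison, 16.3% upward and 15.4% downward. The median log2 change was 1.63 over the 9 genes and -0.02 over all genes tested. Because the 9 genes were chosen with earlier results of these data known, setting them beside all genes is a description and not a test. Changes are differences of log2(intensity + 3.6) with their standard errors (SE), and p-values from limma were adjusted over all genes tested by the Benjamini-Hochberg method. The 2 sets of 4 arrays did not overlap for 6 of the 9 genes, 5 higher and 1 lower, where 34.6% of all genes tested were separated in this way (16.8% upward and 17.8% downward). Each of the 7 genes that passed did so under every alternative in which it was tested. Because whole corneas were measured, a change in the number of cells of a type and a change in RNA per cell cannot be told apart.

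**Figure D1:**
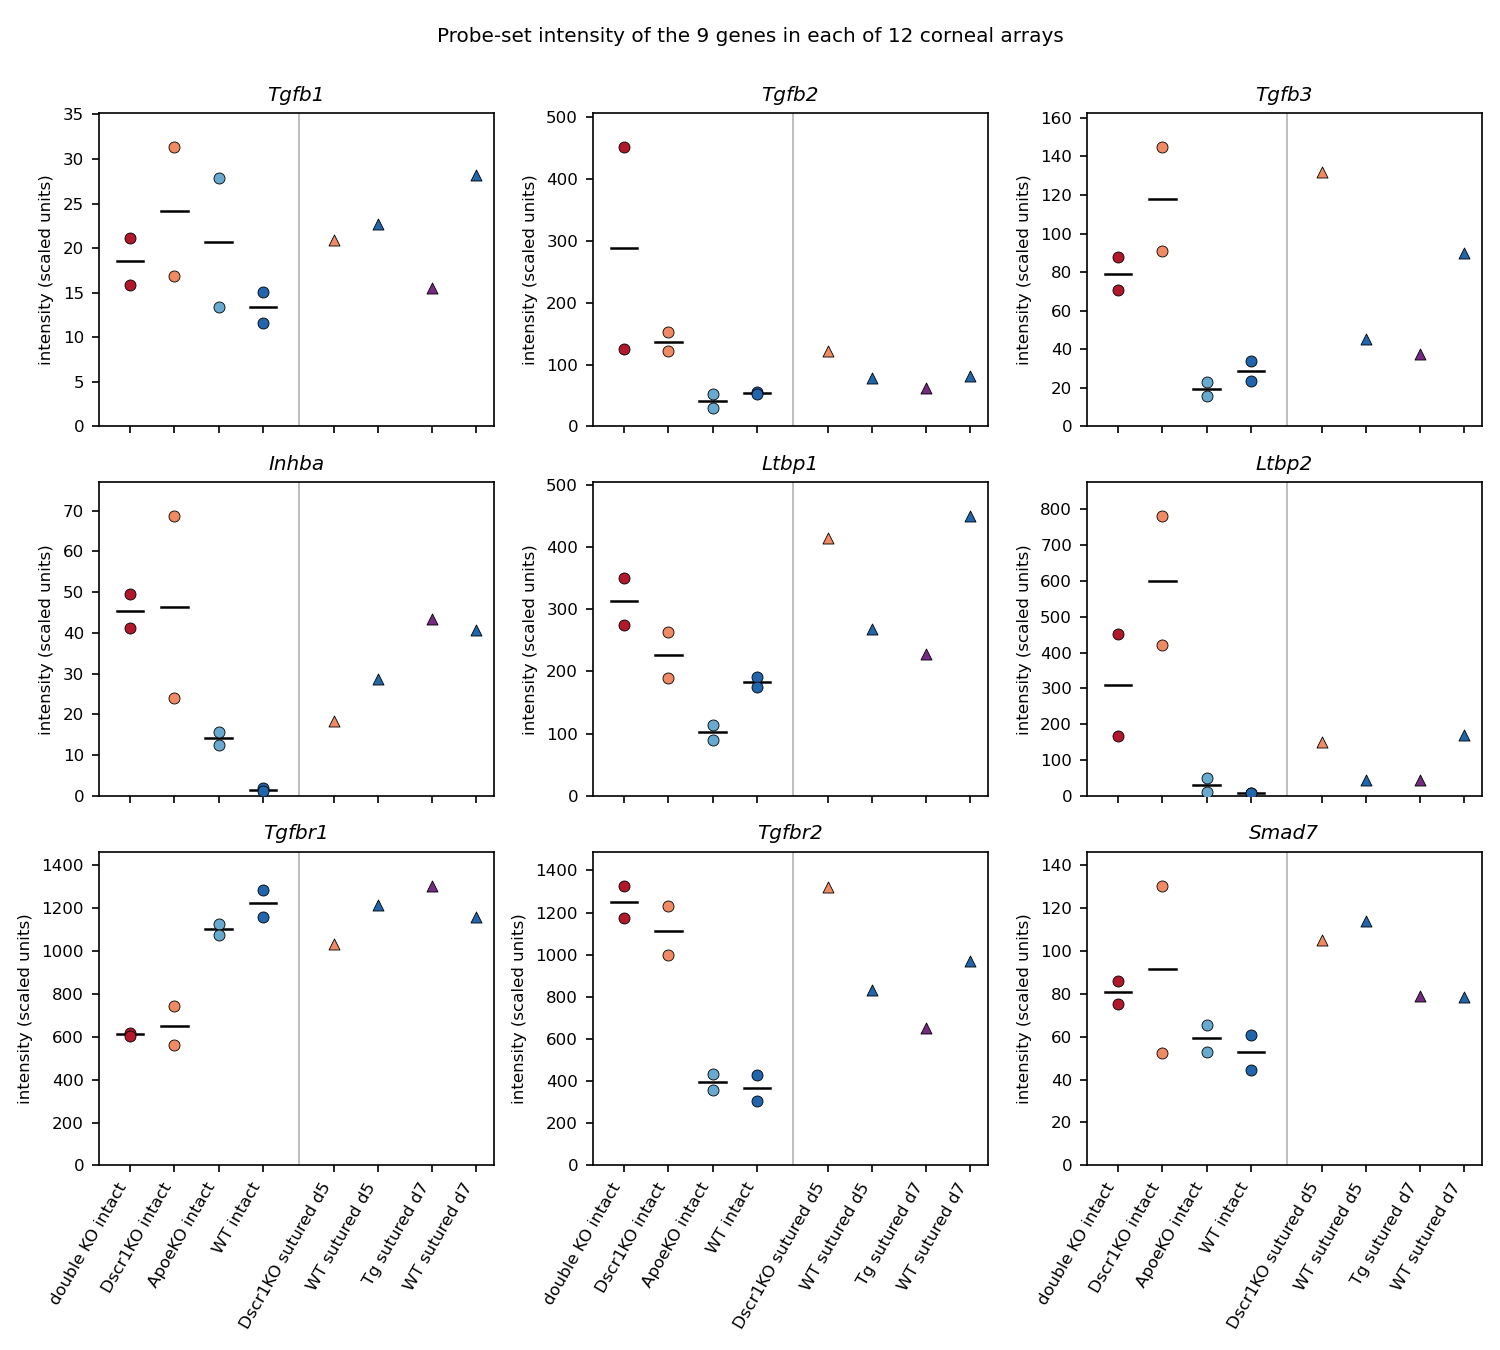
Each panel plots the intensity of 1 gene, in scaled units on a linear axis from 0, with 1 point per array and a bar at the mean of the 2 intact arrays of a genotype. Circles are intact corneas and triangles are sutured ones. Ltbp2 lies at 168.2 to 781.4 in the intact arrays without Dscr1 and at 7.9 to 49.3 in those with it, and Tgfbr1 shows the opposite order.

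Among the ligands, Tgfb3 was separated most evenly. It read 70.6 and 87.8 in double KO and 145.1 and 90.9 in Dscr1KO corneas, against 23.3 and 15.8 in corneas labelled ApoeKO and 34.1 and 23.6 in WT corneas. All 4 arrays without Dscr1 lay above all 4 with it, and the log2 change was 1.87 ± 0.23 (adjusted p = 0.001062). Tgfb2, the ligand best known from the developing eye, read 452.3 and 124.7 in double KO and 122 and 152.1 in Dscr1KO, against 52.8 and 30.4 in the libraries labelled ApoeKO and 56.5 and 52.1 in WT. The arrays again did not overlap, with double KO replicate 1 far above the rest, and the log2 change was 1.87 ± 0.38 (adjusted p = 0.00831). That array also had a summed intensity of 3236.1 for 4 photoreceptor markers, against 19.9 in double KO replicate 2, and the part of retinal RNA in its Tgfb2 level was not tested. Of the 3 other Tgfb2 probe sets, the log2 changes were 1.70, 1.18 and 0.78, with adjusted p-values of 0.006768, 0.02315 and 0.1077.

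Tgfb1, the ligand most often studied in wound healing, did not pass. It read 15.9 and 21.2 in double KO and 31.4 and 16.9 in Dscr1KO, against 27.9 and 13.4 in the libraries labelled ApoeKO and 15.1 and 11.6 in WT. The groups overlapped, and the log2 change was 0.30 ± 0.30 (adjusted p = 0.4839). A dimmer second probe set of Tgfb1 changed by -0.07 (adjusted p = 0.8509). Inhba was higher without Dscr1. It read 41.2 and 49.6 in double KO and 24 and 68.7 in Dscr1KO, against 15.7 and 12.5 in the libraries labelled ApoeKO and 1.9 and 1.2 in WT. The arrays without Dscr1 all lay above those with it, and the log2 change was 2.29 ± 0.33 (adjusted p = 0.001958). The WT values lie below the constant of 3.6 that was added before taking logs, so the size of any fold against WT depends on that constant: the change in Dscr1KO against WT was 3.12 with 3.6, 4.28 with 0.6 and 2.15 with 10.2. A second probe set of Inhba lay below the level required for testing. On it, double KO read 10.6 and 3.7 and Dscr1KO 0.3 and 0.5. The libraries labelled ApoeKO read 12.2 and 0.3 on it, and WT 2.1 and 0.9.

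The latent binding proteins gave both the widest separation and an overlap. Ltbp2, a protein of elastic fibres that, unlike Ltbp1, is known to bind no latent TGF-beta, read 168.2 and 452.4 in double KO and 781.4 and 420 in Dscr1KO. It read 49.3 and 11.2 in the libraries labelled ApoeKO and 8.4 and 7.9 in WT. The lowest array without Dscr1 was thus above the highest array with it, and the log2 change of 4.47 ± 0.46 (adjusted p = 0.0005518) was the largest of the 9. Ltbp1, which tethers the latent complex to matrix, read 275.3 and 350.1 in double KO and 190.2 and 263.9 in Dscr1KO, against 114.6 and 89.5 in the libraries labelled ApoeKO and 191.4 and 174.6 in WT. Dscr1KO replicate 1 lay just under WT replicate 1, so the arrays overlapped, although the averaged change of 0.94 ± 0.16 passed the test (adjusted p = 0.004494). The other probe sets of Ltbp1 lay below the level required for testing.

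The type I and type II receptors moved in opposite directions. Tgfbr2 read 1173.7 and 1328.7 in double KO and 1231.4 and 996.7 in Dscr1KO, against 433.8 and 357.5 in the libraries labelled ApoeKO and 428.6 and 304.8 in WT. The replicates of each genotype lay close together compared with the gap, and the log2 change was 1.63 ± 0.15 (adjusted p = 0.0003287). Tgfbr1 read 619 and 604.8 in double KO and 741.1 and 562.4 in Dscr1KO, against 1125.7 and 1075.5 in the libraries labelled ApoeKO and 1159.8 and 1284.4 in WT. Every array without Dscr1 lay below every array with it, and Tgfbr1 fell by 0.88 ± 0.12 on the log2 scale (adjusted p = 0.001624). The other probe sets of both receptors, 2 for each, lay below the level required for testing.

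Smad7, the feedback inhibitor, did not pass. It read 75.2 and 86.1 in double KO and 52.3 and 130.4 in Dscr1KO, against 52.7 and 65.6 in the libraries labelled ApoeKO and 44.5 and 60.9 in WT. The 2 Dscr1KO arrays were its lowest and highest without Dscr1, and the log2 change was 0.53 ± 0.28 (adjusted p = 0.1837). Without Dscr1KO replicate 1 the change was 0.85 (adjusted p = 0.008137), so 1 library decides this call. A second probe set of Smad7 changed by 0.17 (adjusted p = 0.6698).

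Markers of other cell types moved with the same split of the arrays. Macrophage markers summed to between 2970.4 and 5098 in intact arrays without Dscr1, against 337.9 to 889.3 with it, and 6 of 7 were higher by the same test. Neutrophil markers summed to 8471.8 to 19523.8 without Dscr1, against 106.8 to 266.4 with it, and all 4 on the array were higher. Blood endothelial markers summed to 634.2 to 1218.8 without Dscr1, against 97 to 109.4 with it, and 5 of 6 were higher. In pericyte and smooth muscle markers the sums were 2071.2 to 5295.3 without Dscr1, against 526.3 to 873.7 with it, and 3 of 6 were higher. Cornified epithelium showed the widest gap, 15214.1 to 27725.8 without Dscr1 against 182.6 to 250.1 with it, and all 6 of its markers were higher. Keratocyte sums overlapped, at 16035 to 18821.5 without Dscr1 and 16163.7 to 23742.4 with it, with 1 of 5 markers lower. Corneal epithelium sums also overlapped, at 22564.2 to 33579.1 without Dscr1 and 25650.8 to 34603.9 with it, with 1 of 5 lower. Markers of the cornea itself were thus present on every array. Corneal endothelial markers ran the other way, 791.7 to 2200.4 without Dscr1 against 2400.1 to 4189 with it, and 4 of 4 tested were lower. Conjunctival markers summed to 17875.2 to 23961 without Dscr1, against 6347.8 to 8854.1 with it, with 3 of 5 higher and 1 lower. Lens markers and pigment and iris markers were lower. Lens sums were 420.7 to 922 without Dscr1, against 1516.2 to 6931.9 with it (4 of 6 lower). Pigment and iris sums were 224.4 to 482.8 without Dscr1, against 708.7 to 909 with it (5 of 5 lower). Sums of platelet markers overlapped, at 290.8 to 1033.6 without Dscr1 and 156.8 to 318.8 with it, although 2 of 4 tested were higher. Lymphatic sums were 1387.8 to 1735 without Dscr1, against 908.3 to 1277.1 with it, and 2 of 3 tested were higher. No marker was at 0 on any array. The part of these cell types in the changes of the 9 genes was not tested.

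The genes whose intensities followed each member most closely are a description over the same 12 arrays, which share their genotypes, treatment and tissue makeup. Ltbp2 was most like Csf1r, the macrophage growth factor receptor (Pearson r = 0.9893 over 12 arrays), and then Laptm5 and Ncf1. Tgfbr2 was most like Dock10 (r = 0.9832), and then Fgl2 and Thbs2. Tgfb3 was most like Pdgfc (r = 0.9823), Inhba most like the basal keratin gene Krt14 (r = 0.9738) and Tgfb2 most like Phactr1 (r = 0.9714). For Ltbp1 the closest gene was Fstl1 (r = 0.9551), for Tgfbr1 it was Cxadr (r = 0.9766), for Smad7 it was Srp54b (r = 0.9222), and for Tgfb1 it was Naip6 (r = 0.8227). Among the 9 genes themselves, Tgfb3 and Tgfbr2 were the closest pair (r = 0.931), and Ltbp2 and Tgfbr1 the most opposed (r = -0.7616).

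Comparing single genotypes showed which genes carried the averaged change. In double KO against WT, 5 genes were higher and 1 was lower, where 20.1% of all genes tested passed (11.4% upward and 8.74% downward). The log2 changes were 4.57 ± 0.65 for Ltbp2, 3.25 ± 0.46 for Inhba, 2.06 ± 0.53 for Tgfb2, 1.78 ± 0.21 for Tgfbr2, 1.36 ± 0.32 for Tgfb3 and -0.99 ± 0.17 for Tgfbr1. Ltbp1 missed the threshold at 0.75 ± 0.23 (adjusted p = 0.05471). The arrays of these 2 genotypes did not overlap for any of the 9 genes, with 8 higher and 1 lower, as was the case for 66.5% of all genes tested (31.8% upward and 34.7% downward). Without WT replicate 2 the count was 3, with Tgfb2, Tgfb3 and Tgfbr1 no longer passing. Both of these ligands lost their call under other settings as well. Tgfb3 did not pass without WT replicate 1 (adjusted p = 0.06837), without double KO replicate 1 (0.05907), without double KO replicate 2 (0.08676) or with Xist as a term (0.05991). It was higher in double KO corneas in each of these fits. Tgfb2 did not pass without WT replicate 1 (adjusted p = 0.1301), nor without the 2 libraries of doubtful Apoe level or in a fit of only the groups compared (0.05154 in both). Without double KO replicate 1, Tgfb2 was at 1.15 (adjusted p = 0.08365), and with Xist as a term it was also at 1.15 (adjusted p = 0.08099).

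In Dscr1KO against WT, 4 genes were higher and 1 was lower, where 11.8% of all genes tested passed (7.86% upward and 3.9% downward). These were Ltbp2 at 5.62 ± 0.65 (adjusted p = 0.002702), Inhba at 3.12 ± 0.46 (adjusted p = 0.006494), Tgfb3 at 1.89 ± 0.32 (adjusted p = 0.01123), Tgfbr2 at 1.61 ± 0.21 (adjusted p = 0.004324) and Tgfbr1 at -0.91 ± 0.17 (adjusted p = 0.01428). The intact WT values of Ltbp2 lie under the testing level, and its change was 6.04 with a constant of 0.6 and 4.99 with 10.2. Tgfb2 did not pass, at 1.27 ± 0.53 (adjusted p = 0.1602), and Ltbp1 changed by 0.29 ± 0.23 (adjusted p = 0.4358). The arrays did not overlap for 7 of the 9 genes, 6 higher and 1 lower, as for 61% of all genes tested (28.4% upward and 32.6% downward). Without WT replicate 1 it gave 3 genes, without WT replicate 2 it gave 2, and without the libraries of doubtful Apoe level it gave 4. With Xist as a term, whose effect is then set by the 2 double KO arrays alone, only Ltbp2 passed, at 7.03 (adjusted p = 0.03112). The 4 genes that no longer passed had changes at least as large as before, 3.37 for Inhba, 2.19 for Tgfb3, 1.78 for Tgfbr2 and -0.95 for Tgfbr1, with adjusted p-values of 0.06571 to 0.1548. Tgfb2, which had not passed, was at -0.56 (adjusted p = 0.5487). For Tgfb2 the double KO arrays that set the Xist effect read 452.3 in replicate 1, which has high Xist and the photoreceptor markers, and 124.7 in replicate 2. The change of sign therefore rests on that pair.

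In double KO against ApoeKO, 5 genes were higher and 1 was lower, where 19.6% of all genes tested passed (11% upward and 8.61% downward). The log2 changes were 3.32 ± 0.65 for Ltbp2, 2.47 ± 0.53 for Tgfb2, 1.85 ± 0.32 for Tgfb3, 1.66 ± 0.21 for Tgfbr2, 1.58 ± 0.23 for Ltbp1 and -0.84 ± 0.17 for Tgfbr1. Inhba missed the threshold, at 1.47 ± 0.46 (adjusted p = 0.0607). With Xist as a term Ltbp2 missed it too, at 2.62 (adjusted p = 0.05739). Ltbp2 was also at 2.62 without double KO replicate 2, and Tgfbr1 was at -0.86 without double KO replicate 1. The arrays did not overlap for 8 of the 9 genes, 7 higher and 1 lower, as for 66.1% of all genes tested (32.7% upward and 33.5% downward). Of the 2 libraries labelled ApoeKO, 1 has Apoe at the WT level, so this comparison rests on a doubtful label. Without that library, ApoeKO replicate 1, Tgfb2 and Tgfbr1 no longer passed, at 2.83 (adjusted p = 0.05604) and -0.81 (adjusted p = 0.09921), and Ltbp2 was at 4.24 (adjusted p = 0.01359). Without ApoeKO replicate 2, Tgfbr2 alone passed.

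**Figure D2:**
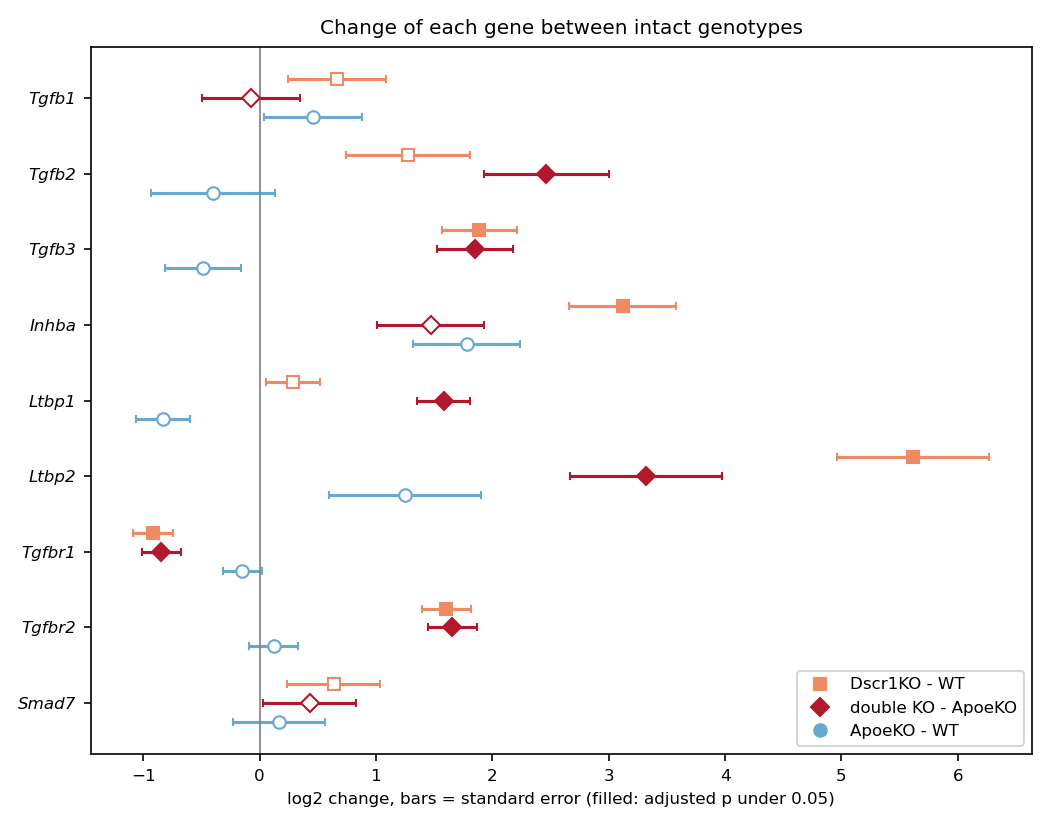
Points are log2 changes of each gene between intact genotypes, with bars of 1 standard error and n = 2 arrays per genotype, for Dscr1KO minus WT, double KO minus ApoeKO and ApoeKO minus WT. Filled points have an adjusted p under 0.05. Tgfbr2 lies at 1.61 and 1.66 in the 2 comparisons of Dscr1 loss, and no filled point belongs to ApoeKO minus WT.

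The Apoe labels moved none of the 9 genes past the threshold. The library labelled ApoeKO replicate 1 read 849.3 for Apoe, so these comparisons rest on a doubtful label. Between ApoeKO and WT, Xist was high in the ApoeKO arrays alone, so label and Xist level cannot be told apart. In ApoeKO against WT, none passed in limma, where 0.0236% of all genes tested did (3 genes, with 477 at an unadjusted p under 0.05). Inhba was at 1.78 ± 0.46 (adjusted p = 0.6743) and Ltbp1 at -0.83 ± 0.23 (adjusted p = 0.7351). They were among 5 of the 9 genes whose arrays did not overlap, as for 44.8% of all genes tested. Fitted on these 2 groups only, Ltbp1 passed at the same change (adjusted p = 0.04026). Averaged over the Dscr1 labels, Apoe loss gave none of the 9, where 0.0157% of all genes tested passed (758 at an unadjusted p under 0.05), and the arrays of all 9 genes overlapped, while 1.36% of all genes tested did not. Dscr1KO replicate 2, counted there as having Apoe, has a source label of ApoE-/- and read 316.8 for Apoe.

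In double KO against Dscr1KO, none of the 9 passed, where 0.0236% of all genes tested did (1365 at an unadjusted p under 0.05). The largest of the 9 was Ltbp2, at -1.04 ± 0.65 (adjusted p = 0.5974), from a mean of 310.3 ± 201 in double KO and 600.7 ± 256 in Dscr1KO (SD, n = 2 each). The test of whether Dscr1 loss acts differently under the 2 Apoe labels also gave none of the 9, where 0.00787% of all genes tested passed (962 at an unadjusted p under 0.05). Ltbp1 had the lowest p of the 9 there. Its Dscr1 change was larger under the ApoeKO label than under WT by 1.29 ± 0.32 (adjusted p = 0.5196). Ltbp2 differed by -2.29 ± 0.92 (adjusted p = 0.642) and Inhba by -1.65 ± 0.65 (adjusted p = 0.6317). These intact comparisons share arrays with each other, so they are not independent.

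The rest of the pathway was described by role for the averaged loss of Dscr1, where the background is the 16.3% upward and 15.4% downward given above and a median of -0.02. These lists too were chosen with earlier results of these data known, so their counts are a description and not a test. Of 9 genes listed as other ligands and tested, 5 were higher and none lower, with a median of 0.94. The 5 were Bmp2 (3.10), Gdf10 (3.06), Bmp4 (1.73), the activin B subunit gene Inhbb (1.47) and the inhibin subunit gene Inha (0.94). Bmp1 (0.77, adjusted p = 0.05518) counts among the 9 and in the median, although it encodes a protease and not a ligand. Of 10 other receptors and co-receptors, 2 were higher and 1 lower, with a median of -0.10. Eng (1.43) and Acvrl1 (1.33), both known from blood vessel endothelium, were the higher ones, and Cd109 (-1.60), a co-receptor that dampens TGF-beta signalling, was the lower one. With Xist as a term this list gave 1 higher and 4 lower, with a median of -0.26. The blood endothelial marker sums given above moved with them.

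Of 15 genes that store or activate latent TGF-beta, 6 were higher and none lower, with a median of 0.51. The gelatinase genes Mmp9 (3.88) and Mmp2 (2.17), Nrros (2.05), which holds latent TGF-beta on myeloid cells, and Furin (0.87), which cleaves the propeptide, led the group. Of 11 extracellular inhibitors, 6 were higher and none lower, with a median of 1.05. These included the small proteoglycan genes Aspn (4.45) and Fmod (1.89), the BMP antagonist gene Grem1 (1.68) and Fstl1 (1.32). Genes of the activating list and genes of the inhibitor list, some of which act on BMPs, were thus both among those that rose. Macrophage and neutrophil marker sums moved with both lists, as did the cornified epithelium, conjunctival, blood endothelial, and pericyte and smooth muscle sums.

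Of 19 Smads and intracellular regulators, 3 were higher and 2 lower, with a median of -0.07. The receptor-regulated Smad2 and Smad3 were at -0.23 and -0.30 (adjusted p = 0.2616 and 0.06364) and the shared Smad4 at 0.03 (adjusted p = 0.8722), while the BMP-regulated Smad1 was higher at 1.13. Pmepa1 (1.16) and Skil (0.71), both TGF-beta target genes whose products restrain Smad signalling, were also higher, and Smad6 (-0.78) and Smurf2 (-0.62) were lower. Of 7 BMP target genes, 2 were higher and 1 lower, with a median of 0.25: Id1 at 1.39, Id3 at 1.10 and Id2 at -1.27.

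Of 30 genes known to be induced by TGF-beta, 16 were higher and 3 lower, with a median of 0.69. The matrix genes Col3a1 (4.82), Tnc (4.80) and Postn (4.10) and the inhibitor of matrix proteases Timp1 (2.93) had the largest changes. Postn averaged 2772 in double KO against 116.6 in corneas labelled ApoeKO, and 1889 in Dscr1KO against 155.9 in WT. Ccn2, a classic direct target, was higher at 2.0 (adjusted p = 0.004789), while Acta2, the myofibroblast actin, was at 0.76 (adjusted p = 0.2309). Tgfbi (-0.47), Cdkn2b (-0.72) and Tgm2 (-1.24) were the 3 that were lower. Acta2 and Tagln (1.04) also stand among the pericyte and smooth muscle markers, whose sums moved with this list. Without the 2 libraries of doubtful Apoe level, the induced genes counted 11 higher and 3 lower, the latent and activating genes 3 higher, and the receptors 1 higher and 1 lower.

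**Figure D3:**
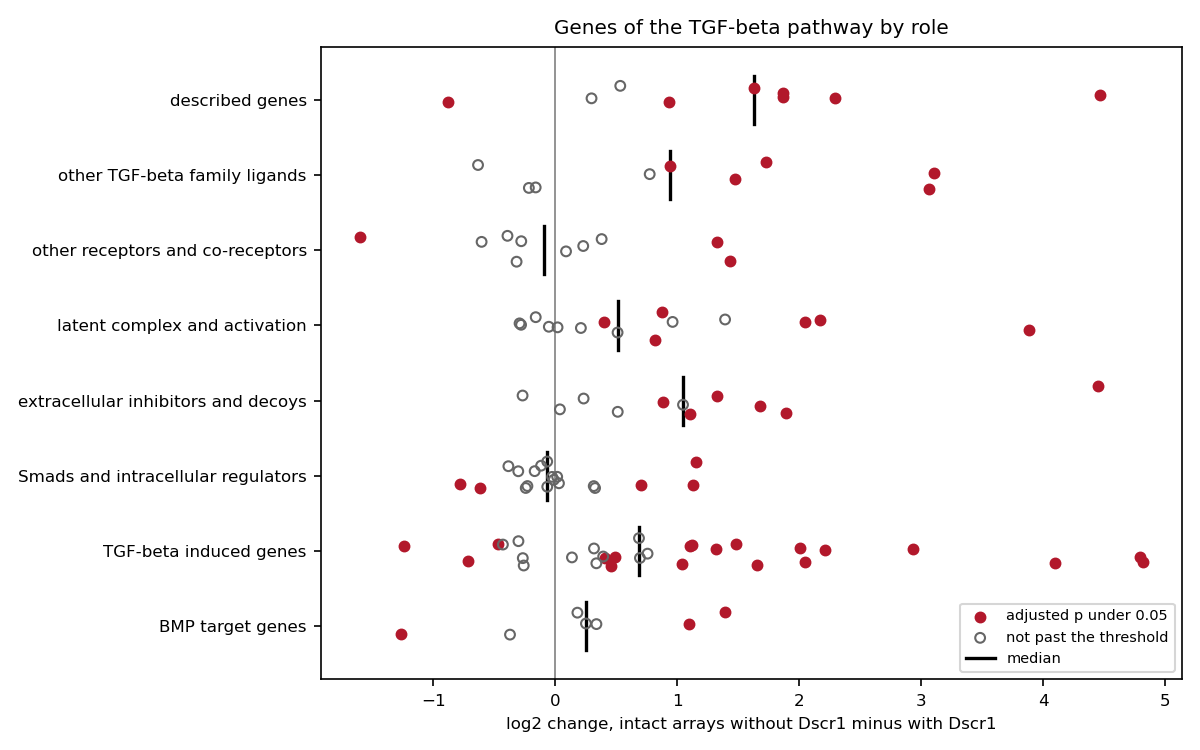
Each point is 1 gene, placed by its log2 change in intact corneas without Dscr1 minus those with Dscr1 (4 arrays each), in rows by role in the pathway. Filled points have an adjusted p under 0.05 and vertical bars are medians. The medians run from -0.10 for other receptors to 1.05 for extracellular inhibitors in the added lists, and the 9 described genes have a median of 1.63.

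Suturing was compared with intact corneas in 7 arrays, 3 sutured (Dscr1KO at day 5 and WT at days 5 and 7) and 4 intact (Dscr1KO and WT), with Dscr1 genotype as a term. Days 5 and 7 were pooled as sutured, with no replicate of either genotype at either day. None of the 9 genes passed in limma and 0% of all genes tested did, with 1251 at an unadjusted p under 0.05. The median log2 change was 0.72 over the 9 genes and -0.03 over all genes tested. Ltbp1 had the lowest adjusted p. It read 413.7 in the sutured Dscr1KO array and 267.7 and 449.6 in sutured WT at days 5 and 7, against 190.2 to 263.9 in intact Dscr1KO and 174.6 to 191.4 in intact WT. The 3 sutured arrays lay above all 4 intact ones, as 4.03% of all genes tested did, and the change was 0.90 ± 0.22 (adjusted p = 0.3979).

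With the WT arrays alone, 2 sutured against 2 intact, 2 of the 9 genes were higher and none lower, where 4.68% of all genes tested passed and 3.28% were higher. The sutured arrays, of days 5 and 7, were fitted as replicates, so their spread includes any difference between days. Inhba read 28.8 and 40.7 in sutured WT at days 5 and 7, against 1.9 and 1.2 in intact WT, a log2 change of 2.88 ± 0.33 (adjusted p = 0.01253). Tgfbr2 read 834.8 and 969.9 in sutured WT, against 428.6 and 304.8 in intact WT, a change of 1.31 ± 0.19 (adjusted p = 0.02186). Ltbp2 missed the threshold at 2.94 ± 0.59 (adjusted p = 0.05075), with 43.5 and 169.6 in sutured WT against 8.4 and 7.9 in intact WT. Tgfbr1, which was lower in intact corneas without Dscr1, was at -0.04 ± 0.12 here (adjusted p = 0.8608). In the same 4 WT arrays, macrophage markers summed to 1770.3 and 2444.1 after suturing, against 355.2 and 337.9 in intact WT, while cornified epithelium markers summed to 368.8 and 199.3 after suturing, against 222.4 and 197.8. Neutrophil markers summed to 10864.5 and 1894.4 after suturing, against 199.8 and 132.2 in intact WT, and platelet markers to 1567.7 and 1976, against 156.8 and 160.1. The part of these cells in the Inhba and Tgfbr2 calls was not tested. Of the induced genes, 8 of 30 were higher with WT arrays alone and none was lower, and 4 of 15 latent and activating genes were higher.

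Dscr1KO corneas gave other values for Inhba, which read 18.5 in the sutured Dscr1KO array, against 24 and 68.7 in intact Dscr1KO. Taken as the change in Dscr1KO minus the change in WT, the difference was -3.90 ± 0.77 for Inhba (adjusted p = 0.1068) and -4.85 ± 0.95 for Ltbp2 (adjusted p = 0.1058). Neither passed, nor did the other 7 genes, in a fit where 77 genes passed. Ltbp2 read 150.2 in sutured Dscr1KO, against 781.4 and 420 in intact Dscr1KO. In that fit only the intact Dscr1KO arrays have high Xist, so this difference and one of Xist level cannot be told apart. The sutured WT arrays in it are of days 5 and 7 and the sutured Dscr1KO array of day 5 alone, so unlike days also enter the difference. Cornified epithelium markers summed to 252.9 in the sutured Dscr1KO array, against 15214.1 and 27725.8 in intact Dscr1KO, and the part of that tissue in these values was not tested.

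Single sutured arrays were compared without a test, counting differences of 2-fold or more. At day 5, Tgfb3 read 131.8 in Dscr1KO against 45.2 in WT, a log2 difference of 1.47, and Ltbp2 read 150.2 against 43.5, a difference of 1.71. These were the 2 of 9 genes past 2-fold, where 6.1% of all genes tested were past it and 4.17% were higher. Tgfbr2 read 1319.5 in Dscr1KO against 834.8 in WT, a difference of 0.66, and Tgfbr1 read 1030.2 against 1213.4, a difference of -0.24. At day 7, the same pair stood apart in the other direction in the array labelled Tg. Tgfb3 read 37.4 in the library labelled Tg, against 90.1 in WT, a difference of -1.19, and Ltbp2 read 45.3 against 169.6, a difference of -1.82, where 4.29% of all genes tested were past 2-fold and 3.53% were lower. Ltbp1 was close to 2-fold, with 227.9 in the library labelled Tg, against 449.6 in WT. Smad7, by comparison, read 78.7 in the library labelled Tg, against 78.3 in WT.

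Between the WT arrays of days 7 and 5, Ltbp2 was past 2-fold, with 169.6 at day 7 and 43.5 at day 5, where 5.32% of all genes tested were past it and 3.32% were higher. Tgfb3 read 90.1 at day 7 and 45.2 at day 5, a log2 difference of 0.94. Each of the WT arrays also serves as the comparator of another genotype, so these 3 comparisons are not independent. Macrophage markers summed to 3433.1 in Dscr1KO against 1770.3 in WT at day 5, and to 1620.8 in the library labelled Tg, against 2444.1 in WT at day 7. Blood endothelial markers summed to 573.8 in Dscr1KO against 176 in WT at day 5, and to 166.6 in the library labelled Tg, against 385.4 in WT at day 7. Macrophage and blood endothelial sums thus ran in the same direction as Tgfb3 and Ltbp2 on both days, and they were not alone. Pericyte and smooth muscle sums were 3263.3 in Dscr1KO against 1092.8 in WT at day 5. At day 7 those were 1146.5 in the array labelled Tg, against 2668 in WT. Keratocyte, conjunctival, corneal endothelial, and pigment and iris sums also ran this way. Corneal epithelium, cornified epithelium, lens and photoreceptor sums did not reverse between the days, and lymphatic sums ran opposite. Neutrophil sums ran the other way, with 1121 in Dscr1KO against 10864.5 in WT at day 5. At day 7 they were 5978.8 in the array labelled Tg, against 1894.4 in WT. Platelet sums were 1094.3 in Dscr1KO against 1567.7 in WT at day 5, and 1480 in the array labelled Tg, against 1976 in WT, at day 7. The part of these cells was not tested.

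**Figure D4:**
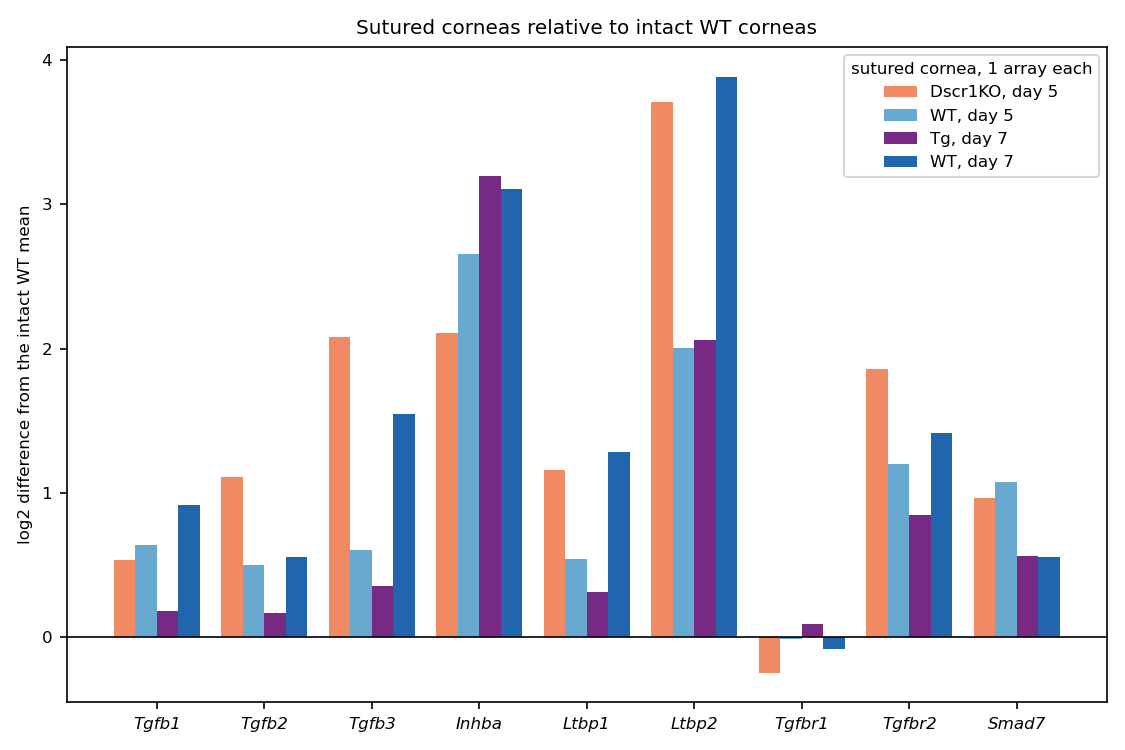
Bars give the log2 difference of each sutured array from the mean of the 2 intact WT arrays, 1 array per bar, starting at 0. Ltbp2 stands at 3.71 in Dscr1KO and 2.0 in WT at day 5 and at 2.06 in the library labelled Tg and 3.88 in WT at day 7, while Tgfbr1 stays between -0.24 and 0.10.

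Across all 8 groups, the order of means differed from gene to gene. Ltbp2 ran from 600.7 in intact Dscr1KO and 310.3 in intact double KO, whose arrays overlapped, down to 8.15 in intact WT. Tgfb3 was highest in sutured Dscr1KO (131.8) and intact Dscr1KO (118), which overlapped, and lowest in intact corneas labelled ApoeKO (19.6). Inhba was lowest in intact WT (1.55), below the libraries labelled ApoeKO (14.1) without overlap, and its 2 highest groups, intact Dscr1KO (46.4) and intact double KO (45.4), overlapped. Ltbp1 was highest in sutured WT at day 7 (449.6). With 1 or 2 arrays a group, neighbours in these orders that do not overlap are still not shown to differ.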

How the data were processed

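RNA of whole corneas was read on 12 Affymetrix arrays with 45101 probe sets. The deposited values are linear intensity signals that the authors scaled on each array, since each has a mean of 100 once 2% is trimmed from either end. Per the labels' protocols, 100 ng of total RNA was made into biotinylated cRNA. The sources used here do not name the signal software. No values had counts behind them, and the number of arrays limits the precision.

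Probe sets with 1 symbol in the platform table were used (34958), and the brightest stood for each gene. Values became log2(intensity + 3.6), the constant 3.6 being the 20th percentile over the whole table. Genes with a mean log2 value under the 40th percentile of probe sets were left out, with Rcan1 and Apoe kept. limma 3.58.1 in R 4.3.3 fitted 1 coefficient per intact genotype, with a trended empirical Bayes spread and a threshold of 0.05 after Benjamini-Hochberg adjustment. Replicate numbers of the labels did not pair the arrays: same-numbered deviations correlated between -0.05 and 0.07. Figures used matplotlib 3.10.9.

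The 9 genes, the role lists and the markers were chosen with earlier results of these data known. Every member was named, with up to 4 genes of the largest change past the threshold from each list. Genes beyond that rule (Inha, Smad2, Smad3, Smad4, Smurf2, Ccn2, Acta2, Tagln, Tgfbi, Cdkn2b and Tgm2) were added after their values were seen. Alternatives were other pseudocounts, filters and normalization, a replicate block, Xist as a term, and libraries left out. The script was tested on simulated data.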

Additional observations from a re-analysis of the deposited data

Results flagged for a closer look

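In groups of 4 arrays, 18 sets were examined for an array standing apart from the other 3, and chance alone marks about 1 in 20. Tgfb2 read 452.3 in double KO replicate 1, far above the other 3 intact arrays without Dscr1, which read 122 to 152.1. Photoreceptor markers summed to 3236.1 on that array, against 66.7 or less on the other 3, and their part in the Tgfb2 level was not tested. Tgfb2 also read 30.4 in the library labelled ApoeKO replicate 2, below the 52.1 to 56.5 of the other 3 intact arrays with Dscr1. Ltbp2 read 49.3 in the library labelled ApoeKO replicate 1, against 7.9 to 11.2 in the other 3 intact arrays with Dscr1. On that library Apoe read 849.3 and macrophage markers summed to 889.3, against 7.5 and 471.7 in the library labelled ApoeKO replicate 2, and the part of either in Ltbp2 was not tested.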

How the results depend on the processing

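For the averaged loss of Dscr1, 7 of the 9 genes passed, and between 7 and 8 did with each array left out in turn. Of the other alternatives, only the stricter filter gave another count, 6, because it leaves Inhba untested. In Dscr1KO against WT, where 5 passed, leaving out single arrays gave 2 to 6, and Xist as a term gave 1. In double KO against WT, where 6 passed, leaving out single arrays gave 3 to 7. In double KO against ApoeKO, where 6 passed, it gave 1 to 7. In ApoeKO against WT, where 0 passed in limma, fitting only the groups compared gave 1. In suturing against intact, where 0 passed, WT arrays only gave 2. The causes were not tested, except that fits with fewer arrays have fewer degrees of freedom. With the replicate number as a block, the intact comparisons gave 5, 0, 6, 6, 0, 7, 0 and 0 genes, as without it. The replicate block was not run for suturing, because the labels give the sutured arrays no replicate number. No call changed direction under the alternatives run. A sole remaining array was assumed to vary like the other groups. Intensities near background, such as Inhba in intact WT, limit the size of fold changes.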
